A study of Mus musculus with 4 samples.

Results

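The lysosomal genes described here are the genes of lysosomal hydrolases, of lysosomal membrane proteins, of the transcription factors that control them and of the vacuolar H+-ATPase (V-ATPase). Members were 44 genes listed by symbol, all of which were in the table, and every gene whose symbol starts with Atp6v or Atp6ap, which added 20, so that 64 of the 12661 genes measured were examined. Bulk RNA-seq had been made from perivascular adipose tissue (PVAT) dissected with the other outer tissue of the femoral artery. Both groups were wild type C57BL/6 female mice, ovariectomized and 11 weeks old, and they differed in the operation, which was a sham operation or endovascular injury with a wire of 0.38 mm. Tissue was taken 48 h later, with 2 libraries in each group. The labels do not say whether a library came from 1 mouse or from pooled mice, so p-values measure only the spread between these libraries. The deposited values are signed, and the reference they are set against is not stated. Genes such as *Glb1* (-0.28 to -0.12) were below 0 in every library, so the values were not centred over these libraries. A value was therefore read only against the same gene in another library, not as abundance. Between genes only changes with injury were compared, not levels. The scale behaves like a log scale of unstated base, so differences (injury minus sham) are given in deposited units and not as folds. Read depth is unknown. The tissue is a mixture of cells, in which more cells of a type and more RNA per cell cannot be told apart. All 12 adipocyte marker genes examined were in the table.

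Lysosomes are acidic organelles in which proteins, glycans and lipids taken up from outside or delivered by autophagy are digested. Their acidity is made by the V-ATPase, a rotary pump whose cytosolic V1 sector hydrolyses ATP and whose membrane-bound V0 sector carries the protons. Many lysosomal genes share a short promoter element bound by the MiT/TFE transcription factors TFEB, TFE3 and MITF. In adipose tissue lysosomes are abundant in macrophages, which use them to digest dead cells and lipid, and adipocytes and fibroblasts have them as well.

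After injury 7 of the 64 lysosomal genes were called higher and 0 were called lower by limma, with an adjusted p-value under 0.05 as the call. The 7 were *Ctss*, *Laptm5*, *Gpnmb*, *Atp6v0d2*, *Atp6v1b2*, *Cln3* and *Psap*. They made up 10.9% of the lysosomal genes, where 3.76% of all genes were called higher and 3.67% called lower. Before adjustment, 29 of the 64 had a p-value under 0.05 with a higher mean after injury and 1 with a lower mean, as did 14.8% of all genes in each direction. In 44 of the 64 (68.8%) both injury libraries lay above both sham libraries, as they did in 31.6% of all genes. In 4 of the 64 both injury libraries lay below both sham libraries, against 30.3% of all genes. The median difference over the 64 was 0.37 deposited units, against 0.01 over all genes, with a range from -0.81 for *Atp6v0e2* to 2.18 for *Ctss*. The calls use a spread that limma shares across genes, because the lowest p an exact permutation test allows at this group size is 0.333. They also rest on both sham libraries. None of the 7 was called without sham replicate 1 or without sham replicate 2, where 0 and 1 genes of the whole table were called. Without injury replicate 1 the count was 4, as *Atp6v1b2*, *Cln3* and *Psap* were no longer called, and without injury replicate 2 it was 17. The difference moved by over 1.5 times with some library left out in 32 of the 64 genes, none of which was called.

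**Figure D1:**
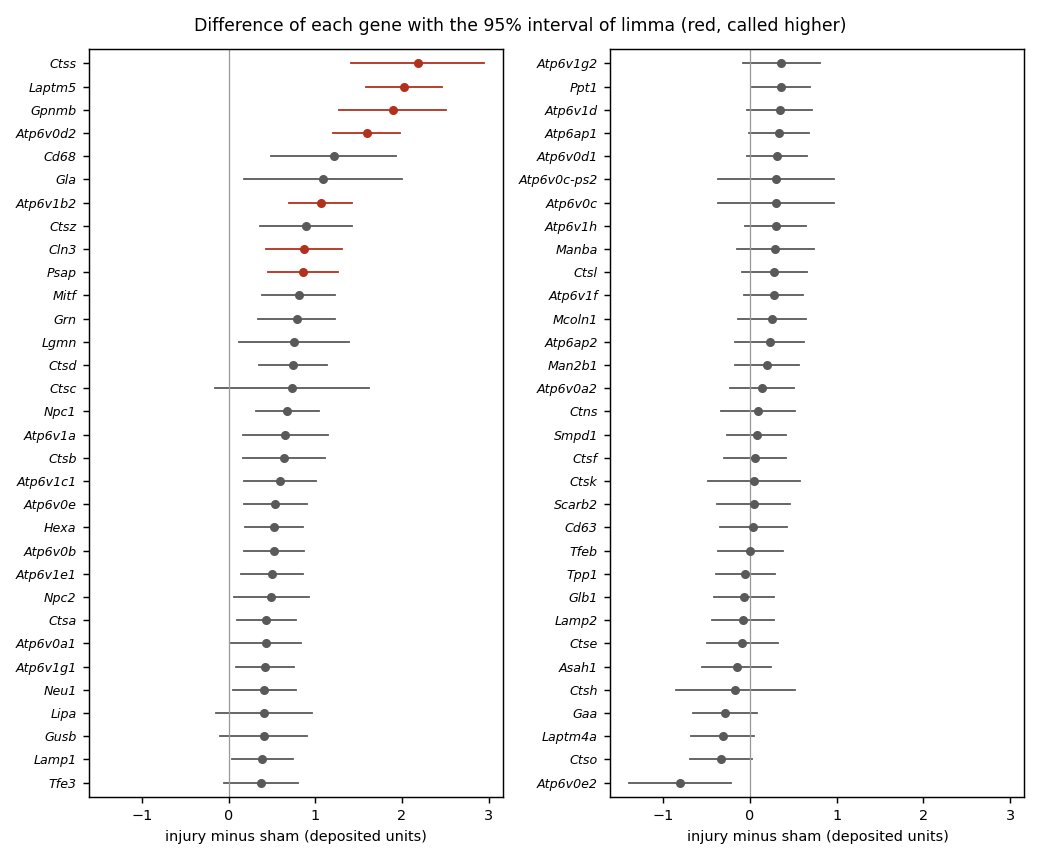
Difference between injury and sham (x axis, deposited units) for each of the 64 lysosomal genes, ordered from the highest to the lowest, with points for the limma estimate and lines for its 95% confidence interval. Genes called higher are in red, 29 intervals lie above 0, 1 lies below 0 and 34 cover it.

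The transcription factors were examined first, since they act on the other members. *Mitf* (mm9 chromosome 6, 97757052 to 97971352) was at -0.42 and -0.51 in the sham libraries and at 0.51 and 0.17 in the injury libraries. Both injury libraries were higher, and the difference was 0.81 (standard error 0.17), just above the threshold (adjusted p = 0.0504 by limma). *Mitf* was called after quantile normalization (adjusted p = 0.0466), and its adjusted p-value over the fits to all libraries was 0.0427 to 0.0602. *Tfe3* was at -0.19 and -0.23 after sham operation and at 0.34 and -0.01 after injury. Its groups did not overlap, and its difference was 0.37 (standard error 0.17, adjusted p = 0.210), or 0.20 without injury replicate 1. *Tfeb* was at 0.20 and 0.01 after sham operation and at 0.19 and 0.03 after injury. These values overlapped nearly fully, and the difference of *Tfeb* was 0.01 with a 95% interval of -0.37 to 0.38. None of these 3 genes was called by limma, and 1 had an unadjusted p-value under 0.05.

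The promoters of the members were searched for the element that MiT/TFE factors bind, whose core is CACGTG and whose longer form begins GTCACGTG. The core reads the same on both strands, and the longer form was searched on both strands and is counted within the core. RefSeq promoters of the build GRCm38.p6, each with 250 bases before and 50 bases after a start, were held for 52 of the 64 genes. No promoter entry was used for *Ctsb*, *Ctse*, *Ctsh*, *Asah1*, *Npc1*, *Atp6v0a2*, *Atp6v0c-ps2*, *Atp6v0d2*, *Atp6v1b2*, *Atp6v1c1*, *Atp6v1g1* and *Atp6v1h*. CACGTG was found in 15 of the 65 promoters of the 52 matched genes (23.1%), in 7.15% of all RefSeq promoters and in 9.92% of the promoters of genes in the table. GTCACGTG was found in 10 of the 65 promoters (15.4%), in 2.25% of all promoters and in 4.06% of those of genes in the table. The genes with GTCACGTG were *Gla*, *Cln3*, *Lgmn*, *Ctsd*, *Atp6v0b*, *Ctsa*, *Lamp1*, *Atp6v0d1*, *Mcoln1* and *Glb1*. Their differences had a median of 0.48 and ran from -0.07 to 1.09, and 1 of the 10 was called. In the 42 genes without it the median difference was 0.35 with a range from -0.81 to 2.18, and 4 were called. Of the 5 called genes that have a promoter entry, *Cln3* carries the element at the second of its 2 starts and has no CACGTG at the first. *Ctss*, *Laptm5*, *Gpnmb* and *Psap* have no CACGTG in these windows.

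Stretches of 100 bases are shown for these 5 genes and for *Ctsd*, which carries the element and was just above the threshold, each 5′ to 3′ on the strand of the gene, with CACGTG or the longer match in capitals. The window of *Cln3* (the second of its 2 starts) lies at chr7:126583306-126583405 on the minus strand and that of *Ctsd* at chr7:142387978-142388077 on the minus strand, both in GRCm38.p6. In *Cln3* the CACGTG matches begin at positions -149 and -121 from the start, and in *Ctsd* at -245 and -98, of which the window shows the former. The windows of *Ctss* (chr3:95526686-95526785), *Laptm5* (chr4:130913216-130913315), *Gpnmb* (chr6:49036418-49036517) and *Psap* (chr10:60277528-60277627, the first of its 2 starts) lie on the plus strand and end at the base before the start.
Cln3: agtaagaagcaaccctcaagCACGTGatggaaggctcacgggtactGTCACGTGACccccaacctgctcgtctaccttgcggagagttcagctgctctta
Ctsd: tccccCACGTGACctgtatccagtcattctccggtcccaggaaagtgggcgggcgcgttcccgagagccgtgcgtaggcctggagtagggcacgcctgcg
Ctss: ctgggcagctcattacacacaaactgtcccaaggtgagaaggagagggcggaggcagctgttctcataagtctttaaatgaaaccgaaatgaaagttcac
Laptm5: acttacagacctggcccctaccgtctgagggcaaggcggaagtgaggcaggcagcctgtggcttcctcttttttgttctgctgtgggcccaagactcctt
Gpnmb: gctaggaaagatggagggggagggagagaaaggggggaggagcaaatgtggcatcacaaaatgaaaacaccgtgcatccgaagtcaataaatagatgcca
Psap: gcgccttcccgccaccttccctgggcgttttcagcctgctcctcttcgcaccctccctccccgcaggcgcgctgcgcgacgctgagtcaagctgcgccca
These matches describe the letters only, and binding was not measured.

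Among the 14 genes of cathepsins and other peptidases 1 was called higher, *Ctss*, beside 3.76% of all genes, and in 8 both injury libraries lay above both sham libraries (31.6% of all genes). *Ctss* encodes cathepsin S, the protease of antigen-presenting cells that trims the invariant chain of MHC class II, and lies on chromosome 3 of mm9 from 95330708 to 95360325. Its values were -1.65 and -1.32 after sham operation and 1.12 and 0.27 after injury. Both injury libraries were far above both sham libraries, although they differed from each other by 0.85. The difference of *Ctss* was 2.18 (standard error 0.31, adjusted p = 0.0291 by limma), the highest of the 64. Its neighbour *Ctsk* encodes cathepsin K, the collagen-degrading protease of osteoclasts, and ends 17423 bases before *Ctss* begins. *Ctsk* was at -0.14 and -0.46 after sham operation and at -0.03 and -0.48 after injury, so that the groups overlapped and the difference was 0.05 (95% interval -0.48 to 0.58), which turned to -0.11 without sham replicate 2 and to -0.18 without injury replicate 1. The gap between *Ctss* and *Ctsk* within a library changed by 2.13 deposited units with injury, for which the exact permutation test gave p = 0.333, the smallest it can give, and 0.556 after adjustment over the 5 pairs of genes compared in this way. *Ctsk* and the uncalled peptidase genes other than *Ctso* were chosen after their values were seen.

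The aspartic protease gene *Ctsd* was at -0.57 and -0.43 after sham operation and at 0.36 and 0.11 after injury. These values did not overlap, and the difference of 0.74 was just above the threshold (adjusted p = 0.0518 by limma). *Ctsz* (0.89), *Lgmn* (0.75), *Ctsc* (0.73) and *Ctsb* (0.64) had differences of like size but a wider spread, with adjusted p-values from 0.0631 for *Ctsz* to 0.239 for *Ctsc*. *Ctsc*, the protease that activates granule serine proteases of neutrophils and lymphocytes, was at 0.49 in injury replicate 1 and at -0.57 in injury replicate 2, and the latter value was close to the sham values of -0.88 and -0.66, so that without injury replicate 1 the difference of *Ctsc* was 0.19. That of *Lgmn* was then 0.42. *Ctsa* had a smaller difference of 0.44 with little spread within either group (adjusted p = 0.107). *Ctsl*, *Ctsf*, *Tpp1*, *Ctse* and *Ctsh* had differences between -0.17 and 0.28, none of which was called. The lowest difference of the peptidases was that of *Ctso*, which was at 0.18 and 0.11 after sham operation and at -0.10 and -0.28 after injury (difference -0.33, adjusted p = 0.198). Over the 14 genes the median difference was 0.36, and without injury replicate 1 it was 0.20. *Ctsf*, *Ctsl*, *Lgmn*, *Ctsd* and *Ctsa* had the CACGTG core in their promoter windows.

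**Figure D2:**
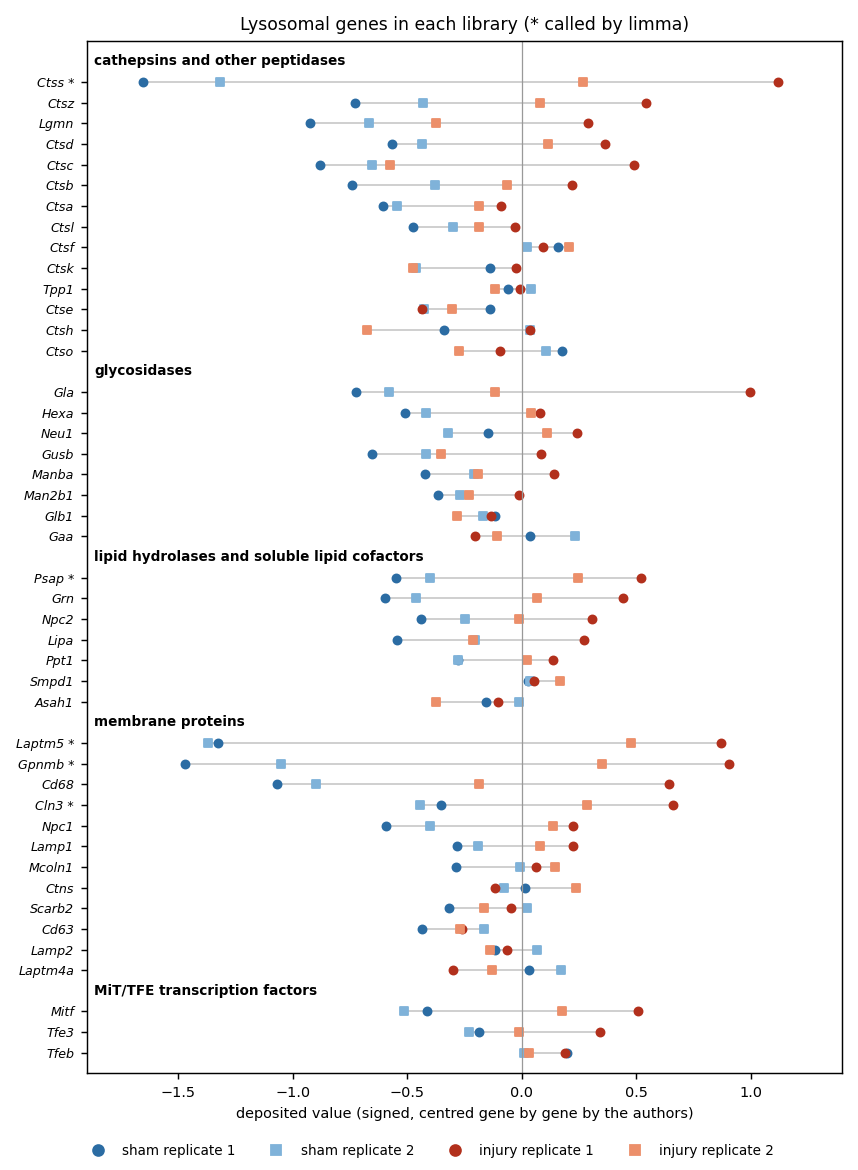
Deposited value (x axis) of the 44 lysosomal genes listed by symbol in each library, grouped by role, with blue for sham and red or orange for injury, circles for replicate 1 and squares for replicate 2. *Ctss*, *Laptm5* and *Gpnmb* have the widest space between the groups, and in *Gla* and *Ctsc* injury replicate 1 stands apart from the other libraries.

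Glycosidases remove sugars from glycoproteins, glycolipids and glycogen. None of these 8 genes was called by limma, and 3 had an unadjusted p-value under 0.05, all with a higher mean after injury, as 14.8% of all genes did. Both injury libraries lay above both sham libraries in 6 of the 8, against 31.6% of all genes, and the median difference was 0.35 (0.15 without injury replicate 1). *Gla*, encoding alpha-galactosidase A, had the highest difference of the group (1.09, standard error 0.36, adjusted p = 0.122). Its sham values were -0.72 and -0.58 and its injury values 0.996 and -0.12, and without injury replicate 1 the difference was 0.53. Without injury replicate 2 the difference of *Gla* was 1.65 and it was called (adjusted p = 0.0083). *Hexa*, a subunit of beta-hexosaminidase, varied little within the groups, from -0.51 to -0.42 after sham operation and from 0.04 to 0.08 after injury (difference 0.53, adjusted p = 0.0724). *Neu1*, *Gusb*, *Manba* and *Man2b1* had differences from 0.20 to 0.41. *Gaa*, the acid alpha-glucosidase that degrades glycogen, had the lowest difference of the group. It was at 0.04 and 0.23 after sham operation and at -0.20 and -0.11 after injury, and its difference of -0.29 (-0.19 without sham replicate 2) was not called (adjusted p = 0.253). *Glb1*, encoding beta-galactosidase, had a difference of -0.07 with overlapping groups.

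Of the 7 genes of lipid hydrolases and soluble lipid cofactors 1, *Psap*, was called higher, beside 3.76% of all genes. *Psap* encodes prosaposin, the precursor of the saposins that present sphingolipids to their hydrolases, on chromosome 10 of mm9 from 59740375 to 59765345. It was at -0.55 and -0.40 after sham operation and at 0.52 and 0.24 after injury. The groups were apart by more than the spread within either, and the difference was 0.86 (standard error 0.16, adjusted p = 0.0431 by limma). *Grn*, whose product progranulin is a partner of prosaposin in lysosomes, had a difference of 0.78 (adjusted p = 0.0586). The sterol carrier gene *Npc2* (0.49), the acid lipase gene *Lipa* (0.41) and the palmitoyl thioesterase gene *Ppt1* (0.36) had positive differences that were not called. *Lipa* was at 0.27 in injury replicate 1, while injury replicate 2 and sham replicate 2 were alike at -0.21 and -0.20. *Smpd1*, acid sphingomyelinase, had a difference of 0.08 with a 95% interval of -0.26 to 0.42. *Asah1*, acid ceramidase, had the lowest difference. It was at -0.16 and -0.01 after sham operation and at -0.10 and -0.37 after injury, with overlapping groups (difference -0.15, adjusted p = 0.568), and its difference ran from -0.29 without injury replicate 1 to -0.018 without injury replicate 2. Over these 7 genes the median difference was 0.41, but without injury replicate 2 it was 0.65.

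Among 12 genes of lysosomal membrane proteins 3 were called higher, *Laptm5*, *Gpnmb* and *Cln3*, beside 3.76% of all genes. The median difference was 0.32. *Laptm5*, which encodes a lysosomal membrane protein of blood cells, lies on chromosome 4 of mm9 from 130469040 to 130492056. It was at -1.33 and -1.37 after sham operation and at 0.87 and 0.48 after injury. The sham libraries were nearly equal and both injury libraries lay far above them, with a difference of 2.02 (standard error 0.18, adjusted p = 0.0285 by limma). *Gpnmb*, a glycoprotein gene known from macrophages loaded with lipid, lies on chromosome 6 from 48986517 to 49020928. It was at -1.47 and -1.05 after sham operation and at 0.91 and 0.35 after injury. This was a difference of 1.89 (standard error 0.25, adjusted p = 0.0291). *Cln3*, the gene of juvenile Batten disease, lies on chromosome 7 from 133714721 to 133729331 and was at -0.35 and -0.44 after sham operation and at 0.66 and 0.28 after injury. The difference of *Cln3* was smaller, 0.87 (standard error 0.18, adjusted p = 0.0477 by limma), and the promoter at its second start has the CACGTG matches shown above.

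The macrophage marker *Cd68* was at -1.07 and -0.90 after sham operation and at 0.64 and -0.19 after injury. Its groups did not overlap, but the injury libraries were 0.83 apart and the difference of 1.21 (0.80 without injury replicate 1) was not called (adjusted p = 0.0628 by limma). *Npc1*, the cholesterol exporter of the lysosomal membrane, had a difference of 0.68 (adjusted p = 0.0533) and was called after quantile normalization (adjusted p = 0.0470), with a range of the adjusted p-value of 0.0456 to 0.0842 over the fits to all libraries and of 0.0601 to 0.291 with a library left out. LAMP1 and LAMP2 are abundant glycoproteins of the lysosomal membrane. *Lamp1* had a difference of 0.39 with groups that did not overlap (adjusted p = 0.144), and *Lamp2* had one of -0.08 with groups that did (0.015 without sham replicate 2). Differences of *Mcoln1*, *Ctns*, *Scarb2* and *Cd63* lay between 0.04 and 0.25 and were not called. The lowest difference of the membrane proteins was that of *Laptm4a*, a relative of *Laptm5*, which was at 0.03 and 0.17 after sham operation and at -0.30 and -0.13 after injury. This difference of -0.32 was not called (adjusted p = 0.219).

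The V-ATPase was represented by 20 genes, 9 of the V1 sector, 9 of the V0 sector and 2 of accessory proteins. Of these 2 were called higher and 0 lower by limma, beside 3.76% and 3.67% of all genes. At an unadjusted p-value under 0.05, 9 had a higher mean after injury and 1 a lower mean (14.8% of all genes in each direction). Both injury libraries lay above both sham libraries in 16 of the 20 (80.0%), against 31.6% of all genes, and the median difference was 0.35. In all 9 genes of the V1 sector both injury libraries lay above both sham libraries, and the differences ran from 0.27 for *Atp6v1f* to 1.06 for *Atp6v1b2* with a median of 0.42. *Atp6v1b2*, the B2 isoform of the nucleotide-binding B subunit, lies on chromosome 8 of mm9 from 71612545 to 71637610. It was at -0.59 and -0.47 after sham operation and at 0.62 and 0.44 after injury, a difference of 1.06 (standard error 0.15, adjusted p = 0.0291 by limma). The catalytic A subunit gene *Atp6v1a* (0.65) and the stalk subunit genes *Atp6v1c1* (0.59) and *Atp6v1e1* (0.50) had adjusted p-values between 0.0872 and 0.0991, and without injury replicate 1 the difference of *Atp6v1a* was 0.41. *Atp6v1f*, the lowest, was at -0.18 and -0.28 after sham operation and at 0.02 and 0.07 after injury (adjusted p = 0.244). The G subunit isoforms *Atp6v1g1* and *Atp6v1g2* had differences of 0.42 and 0.36, the latter being 0.22 without sham replicate 1.

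The V0 sector was more mixed. Its median difference was 0.31, or 0.53 without injury replicate 2. In 5 of the 9 genes both injury libraries lay above both sham libraries, as they did in 31.6% of all genes. *Atp6v0d2*, the d2 isoform known from osteoclasts and macrophages, lies on chromosome 4 of mm9 from 19803988 to 19849752. It was at -1.20 and -1.48 after sham operation and at 0.26 and 0.24 after injury. The injury libraries were nearly equal in this gene, and the difference was 1.59 (standard error 0.16, adjusted p = 0.0285 by limma). The widely expressed isoform of the same subunit, *Atp6v0d1*, was at -0.24 and -0.15 after sham operation and at 0.07 and 0.16 after injury. Its groups did not overlap either, but the difference was 0.31 (95% interval -0.03 to 0.65, adjusted p = 0.198), and this interval lay below that of *Atp6v0d2*. The value of *Atp6v0d2* minus that of *Atp6v0d1* was -0.96 and -1.33 in the sham libraries and 0.19 and 0.07 in the injury libraries, without overlap (exact permutation p = 0.333, the smallest possible, and 0.556 adjusted over 5 pairs).

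The isoforms of subunit e had differences of opposite sign. *Atp6v0e* was at -0.46 and -0.25 after sham operation and at 0.17 and 0.18 after injury (difference 0.54, adjusted p = 0.0812 by limma). *Atp6v0e2*, the isoform best known from brain, was at 0.39 and 0.22 after sham operation and at -0.81 and -0.19 after injury. It was the only member with an interval of the difference below 0 (-1.39 to -0.22), and its difference of -0.81 was not called (adjusted p = 0.0923). Without injury replicate 2 *Atp6v0e2* was called lower, with a difference of -1.12, and without injury replicate 1 it was not called, with a difference of -0.50 (adjusted p = 0.178). The gap between these isoforms changed by 1.34 (exact permutation p = 0.333, and 0.556 adjusted over 5 pairs). The a subunit isoforms *Atp6v0a1* and *Atp6v0a2* had differences of 0.43 and 0.13. The a3 isoform is encoded by *Tcirg1*, whose symbol lies outside the prefixes and which was looked up after the other values were seen. *Tcirg1* was at -0.63 and -0.66 after sham operation and at 0.50 and -0.01 after injury, a difference of 0.89 (adjusted p = 0.0588). *Atp6v0b*, a subunit of the proton-carrying ring, had a difference of 0.52 (adjusted p = 0.0778).

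The other ring subunit gene, *Atp6v0c*, and the row *Atp6v0c-ps2* differed by at most 0.000196 in any library, so that they count as 1 measurement and reads shared between them cannot be assigned. Both were at 0.50 in injury replicate 1 and at -0.27 in injury replicate 2, and their difference of 0.30 became -0.090 without injury replicate 1. Without *Atp6v0c-ps2* the median difference of the V-ATPase was 0.36 over 19 genes and that of all lysosomal genes 0.37 over 63. Of the accessory proteins, *Atp6ap1* was at -0.30 and -0.16 after sham operation and at 0.12 and 0.09 after injury (difference 0.33, adjusted p = 0.183 by limma). *Atp6ap2*, the (pro)renin receptor, was at -0.20 and -0.20 after sham operation and at 0.18 and -0.12 after injury (difference 0.23, adjusted p = 0.397), and without injury replicate 1 its difference was 0.075. Neither was called, and neither had an unadjusted p-value under 0.05.

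**Figure D3:**
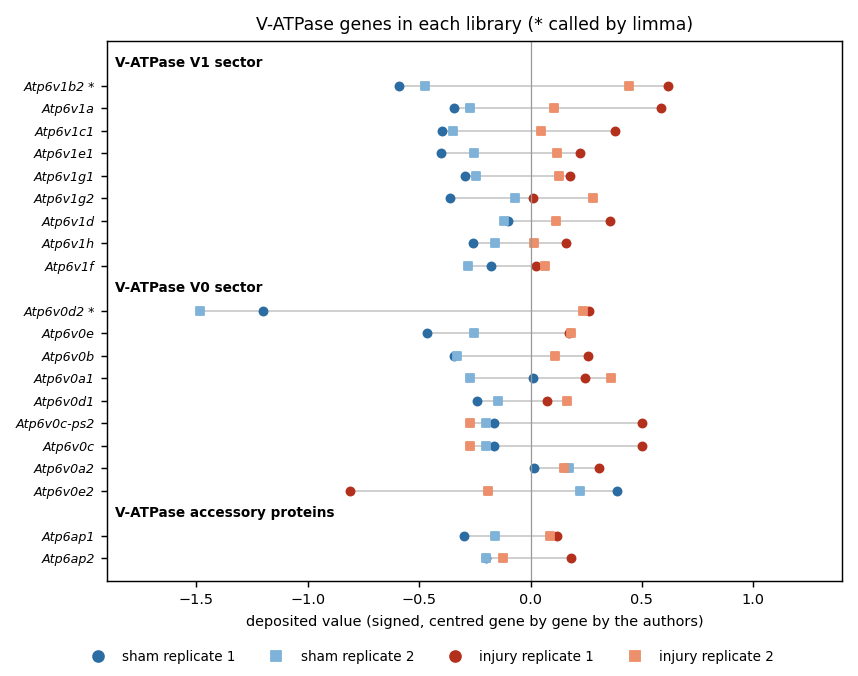
Deposited value (x axis) of the 20 V-ATPase genes in each library, grouped by sector, with blue for sham and red or orange for injury, circles for replicate 1 and squares for replicate 2. All 9 genes of the V1 sector have both injury libraries above both sham libraries, *Atp6v0d2* has the widest space between the groups, and *Atp6v0e2* is lower in both injury libraries.

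The injury libraries were not alike in these genes. In 51 of the 64 (79.7%) injury replicate 1 was higher than injury replicate 2, as it was in 48.9% of all genes, and the median gap was 0.16. The gap was widest in *Gla* (1.11), *Ctsc* (1.07), *Ctss* (0.85), *Cd68* (0.83) and *Atp6v0c* (0.77), and it was 0.02 in *Atp6v0d2* and 0.18 in *Atp6v1b2*. In 13 of the 44 genes whose groups did not overlap with injury higher, the gap between the injury libraries was wider than that from injury replicate 2 to the nearer sham library. Of 16 macrophage markers that are not members, 11 were called higher and 0 lower by limma, beside 3.76% and 3.67% of all genes. At an unadjusted p-value under 0.05 the counts were 14 and 0, beside 14.8% of all genes in each direction. The median difference of these markers was 1.35, with a range from -0.81 for *Cd163* (-0.30 without injury replicate 1) to 2.30 for *Ccr2*. Their median was -1.19 and -1.28 in the sham libraries, 0.37 in injury replicate 1 and -0.12 in injury replicate 2, and 14 of the 16 were higher in injury replicate 1. Among those called were *Csf1r* and *Lyz2*, with differences of 1.33 and 1.54 (adjusted p = 0.0344 and 0.0285 by limma). Besides *Cd163*, the markers not called were *Cd14* (1.48, adjusted p = 0.0558), *Adgre1* (1.08, or 0.46 without injury replicate 1, adjusted p = 0.147), *Mrc1* (0.51, adjusted p = 0.115) and *Mertk* (0.14, adjusted p = 0.643). The groups of *Mertk* overlapped. Of the 64 lysosomal genes 4 had a difference above the macrophage median, namely *Ctss*, *Laptm5*, *Gpnmb* and *Atp6v0d2*. Neutrophil markers (7 measured, 2 called higher) had a median difference of 1.86, with medians of -1.34 and -0.97 after sham operation and of 1.22 and 0.18 after injury. The part of macrophages or neutrophils in the values of the lysosomal genes was not tested. Fibroblast markers (8 in the table, 4 called lower) had a median difference of -0.75. Adipocyte markers (12 in the table, 1 called lower) had one of -0.13, with 6 differences above 0. The adipocyte median was 0.26 and 0.34 in the sham libraries, -0.08 in injury replicate 1 and 0.31 in injury replicate 2. Schwann cell markers had a median difference of -0.59 with 2 of 6 called lower, and their median was -0.76 in injury replicate 1 and -0.26 in injury replicate 2. Of 6 skeletal muscle genes 0 were called by limma (3 lower at an unadjusted p-value under 0.05), with a median difference of -0.75, and their median was 0.79 in sham replicate 1 and between -0.40 and -0.04 in the other libraries. A single gene of the epithelial list, *Cdh1*, was measured, with a difference of -1.54 (adjusted p = 0.207), or -0.56 without sham replicate 1.

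**Figure D4:**
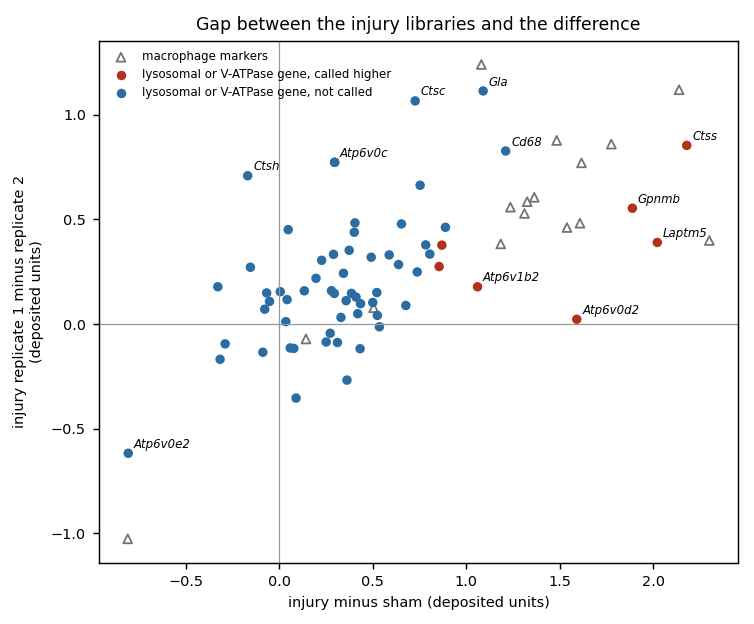
Gap between the injury libraries (y axis, replicate 1 minus replicate 2) against the difference between injury and sham (x axis), both in deposited units, for the 64 lysosomal genes (circles, red where called higher) and 16 macrophage markers (triangles). Most genes of both kinds lie above 0 on the y axis, while *Atp6v0d2* combines a difference of 1.59 with a gap of 0.02.

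Other genes of the pathway were examined by lists. Of 29 further lysosomal enzymes and cofactors 2 were called higher and 0 lower by limma, with a median difference of 0.05, and at an unadjusted p-value under 0.05 the counts were 8 and 5, beside 14.8% of all genes in each direction. The called genes were *Dnase2a*, the acid DNase that degrades DNA of engulfed cells (0.80, adjusted p = 0.0463), and the galactosylceramidase gene *Galc* (0.65, adjusted p = 0.0498). Of 26 further lysosomal membrane proteins and transporters 5 were called higher and 0 lower (10 and 0 at an unadjusted p-value under 0.05), with a median difference of 0.31. Over all genes 3.76% were called higher and 3.67% lower. The highest of the called genes were *Slc15a3*, a peptide and histidine transporter of immune cells (2.08, adjusted p = 0.0303), the calcium release channel gene *Tpcn2* (1.16, adjusted p = 0.0375) and the nucleoside transporter gene *Slc29a3* (0.90, adjusted p = 0.0330). *Slc15a3* was at -1.44 and -1.20 after sham operation and at 1.22 and 0.31 after injury, so that injury replicate 1 was the higher library here too. None of 20 genes of sorting to the lysosome (median difference 0.08), 15 of nutrient signalling at the lysosome (0.17) and 17 of autophagy (0.08) was called by limma. At an unadjusted p-value under 0.05 these lists had 4, 5 and 1 genes with a higher mean after injury and 0 with a lower one, beside the same 14.8% of all genes.

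Of 5 cathepsin inhibitor genes measured, 1 was called higher, beside 3.76% of all genes. This was *Cstb*, encoding the cytosolic inhibitor cystatin B. *Cstb* was at -0.84 and -0.75 after sham operation and at 0.47 and 0.09 after injury (difference 1.07, adjusted p = 0.0330 by limma). The secreted inhibitor gene *Cst3*, cystatin C, had a difference of 0.19 and was not called. *Cst6* was at 4.78 in sham replicate 2 and between -1.04 and 0.07 in the other libraries, so that its difference of -3.06 (standard error 1.45, adjusted p = 0.228) rests on a library that stood far apart and was -0.70 without it. Of 4 osteoclast genes in the table, among them *Acp5* (-0.32) and *Nfatc1* (-0.13), 0 were called by limma, and 1 had an unadjusted p-value under 0.05 with a higher mean (14.8% of all genes), *Tnfrsf11a* (0.60, adjusted p = 0.135). Without injury replicate 1 the difference was -0.010 for *Acp5* and 0.33 for *Tnfrsf11a*, and without injury replicate 2 it was -0.081 for *Nfatc1*.

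**Figure D5:**
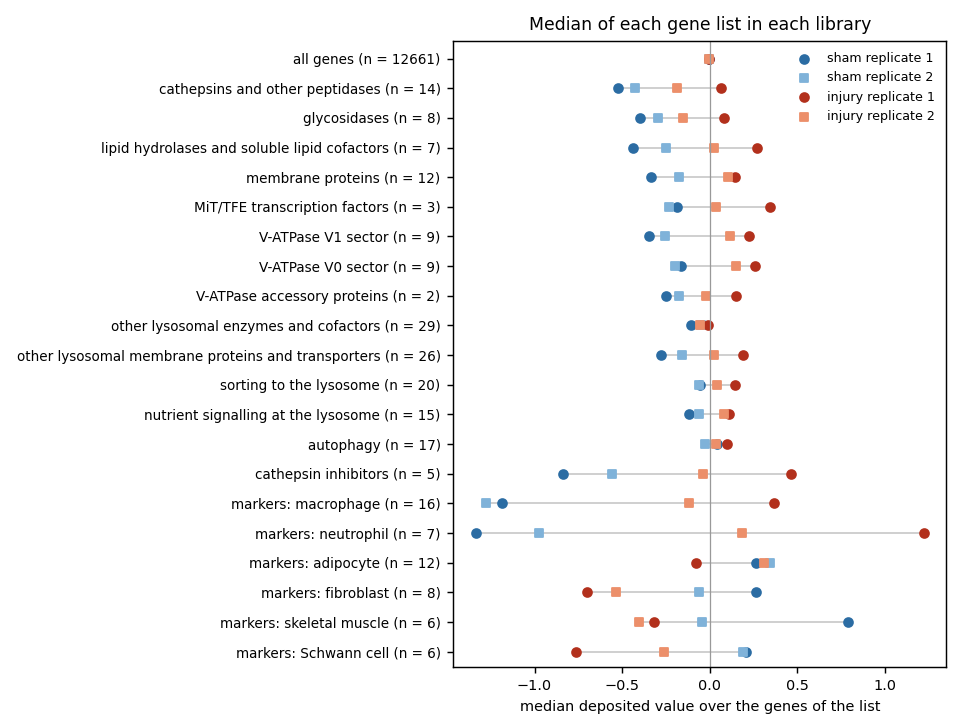
Median deposited value (x axis) over the genes of each list in each library, with blue for sham and red or orange for injury, circles for replicate 1 and squares for replicate 2, and the number of genes in parentheses. The macrophage and neutrophil markers have the widest space between the groups, the 8 role groups of lysosomal and V-ATPase genes are separated in the same direction by less, the medians of the other lysosomal enzymes overlap, and the medians of all genes coincide near 0.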

How the data were processed

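The authors prepared stranded mRNA libraries, using 480 ng of RNA for each. Per the labels, reads were processed with FastQC 0.11.8, cutadapt 1.18, Trimmomatic 0.39, STAR 2.6.0a (mm9), featureCounts and DESeq2 1.28.0 in R 3.6.0. The authors deposited a signed score per gene and library (range -2.27 to 6.45). Its reference point and how it was made from counts are not given in the sources used here. The table's medians were within 0.01 of 0 and its SDs 0.32 to 0.44.

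The columns were compared with limma 3.58.1 (lmFit, eBayes, group as the only term) in R 4.3.3, with Benjamini-Hochberg adjustment over all 12661 genes, a threshold of 0.05 and no filter. DESeq2 was not used, since the values are not counts. The fit was tested on simulated data with 200 of 12661 genes changed. Of genes changed by 1 unit 19.55% were called, and of genes changed by 2 units 65.6%. Unchanged genes called numbered 2.15 per run. A gene that was not called may therefore still have changed. Members and lists were chosen with earlier results of these data known. Values per library were given for called members, the highest and lowest of each group, the transcription factors and isoforms of called V-ATPase genes, and other named genes were chosen after their values were seen. Coordinates are from GENCODE on NCBIM37 (mm9) for 60 of 64 members, promoters from RefSeq (GRCm38.p6). Python 3.11.15, pandas 2.3.3, numpy 2.4.6 and matplotlib 3.10.9 were used.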

Additional observations from a re-analysis of the deposited data

How the results depend on the processing

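Depth and abundance are unknown, so precision rests on 2 libraries a group, and in a fit without 1 library the lone library of a group is assumed to vary like the other group. Genes called over the whole table numbered 941, 2317 at an adjusted p-value under 0.1, 591 with a minimum difference of 1 unit and 0 to 1790 with a library left out. Lysosomal genes called higher numbered 7, 20 at an adjusted p-value under 0.1, 5 with a minimum difference of 1 unit (without *Cln3* and *Psap*) and 0 to 17 with a library left out. Those called lower numbered 0, 1 at an adjusted p-value under 0.1 and 0 to 1 with a library left out, and the same numbers held for the V-ATPase genes called lower. V-ATPase genes called higher numbered 2, 7 at an adjusted p-value under 0.1 and 0 to 4 with a library left out. The median difference was 0.30 to 0.46 for the lysosomal genes and 0.34 to 0.46 for the V-ATPase genes with a library left out. Quantile normalization, columns scaled to one spread and a mean-variance trend each gave 10 lysosomal genes called higher, the 7 with *Ctsd*, *Mitf* and *Npc1*, and a robust variance prior and identical rows counted once gave the 7. The difference of *Tfeb* ran from -0.088 to 0.10 with a library left out, being -0.088 without sham replicate 2 and -0.071 without injury replicate 1. Of the 64 genes 13 changed sign with some library left out, all with differences between -0.17 and 0.30 over all libraries, and 0 of the 7 called genes changed sign or moved by over 1.5 times. The replicate numbers are shared between the groups, but deviations of same-numbered libraries had a correlation of -0.094 over genes and the labels do not pair them. With the replicate block 684 genes and 5 lysosomal genes were called, without *Cln3* (adjusted p = 0.0543 by limma) and *Psap* (adjusted p = 0.0649).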

Other observations

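Nutrient signalling at the lysosome, which as a list had no call, held 1 gene with a difference above 1. *Fnip2*, a partner of folliculin in the complex that controls TFEB and TFE3, was at -0.63 and -0.30 after sham operation and at 1.03 and 0.16 after injury (difference 1.07, adjusted p = 0.0932 by limma), and without injury replicate 1 its difference was 0.63. Its paralog *Fnip1* had a difference of 0.33 (adjusted p = 0.266), or 0.18 without sham replicate 1. The folliculin gene *Flcn* was at -0.08 and -0.06 after sham operation and at 0.37 and 0.34 after injury, nearly without spread within the groups (difference 0.42, adjusted p = 0.106). These genes were singled out after their values were seen.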
